A study of Mus musculus with 16 samples.

Results

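Genes of the calcium/calmodulin-dependent kinase family were followed with PacBio Iso-seq, which reads whole transcripts, in mouse cortex and striatum: Camkk2, Camkk1, Camkv, Camk1, Camk1d and Camk4. They are 6 of the 23724 genes with at least 1 read, and their reads were found by gene name in every sample. The genes were chosen for what R6/2 mice had shown against controls in these same samples (the level of Camkk2 reads, the use of Camkk2 and Camkv isoforms, and the levels of their relatives), so all R6/2 against control values of these genes are descriptions and carry no test. The contrast between striatum and cortex did not enter the choice and was tested, though on the same samples that the choice had used.

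The mice were male and 3 months old. R6/2 mice, of the strain B6CBA-Tg(HDexon1)62Gpb/3J, carry exon 1 of human HTT with an expanded CAG repeat as a transgene beside their own intact Htt genes, and serve as a model of Huntington's disease. That transgene encodes a fragment of huntingtin, not the whole protein, and it is carried by every cell type of the tissue. Non-transgenic (NT) mice were the controls. Each of the 4 groups (Cortex NT, Cortex R6/2, Striatum NT, Striatum R6/2) had 4 samples, 16 in all, made from whole pieces of tissue with many cell types, in which fewer cells of a type and less RNA per cell cannot be told apart.

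Calcium that enters a neuron binds calmodulin, and calcium-loaded calmodulin switches on a family of kinases. CaMKK1 and CaMKK2, encoded by Camkk1 and Camkk2, sit at the top of a cascade: they phosphorylate CaMKI (Camk1, Camk1d) and CaMKIV (Camk4), and CaMKK2 also phosphorylates the energy sensor AMPK. CaMKI acts in the cytoplasm on neurite growth, CaMKIV acts in the nucleus on CREB, and CaMKV, encoded by Camkv, is a synaptic protein with a kinase fold that lacks the activity.

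Depth and tissue make-up bear on all that follows. Reads per sample ranged from 252885 to 808814 in the cortex and from 317050 to 1496196 in the striatum. In 4 striatal samples (NT 1, NT 2, R6/2 2 and R6/2 3) there are 2 sets of counts, which the labels call replicates and which were summed. What kind of replicate they are was not determined here. The mean length of the isoforms that reads were assigned to was 2141 to 2225 bases in these 4 samples, against 1618 to 1885 bases in the other 4 striatal samples and 1851 to 2100 bases in the cortex. Striatum NT 4 stood apart, with the fewest striatal reads, the shortest mean isoform (1618 bases) and 12.2% of its reads in the genomic class, the class of reads that look like unspliced or internally primed RNA. Striatal libraries held far more of the markers of striatal neurons than cortical ones. The summed level of 8 markers of striatal projection neurons was 10308 to 14180 CPM (reads per 1e+06 reads of the normalized library) in Striatum NT, 1911 to 3341 CPM in Striatum R6/2, 392 to 479 CPM in Cortex NT and 95.5 to 126 CPM in Cortex R6/2. The 4 oligodendrocyte markers summed to 2773 to 6384 CPM in Cortex NT, 3029 to 4758 CPM in Cortex R6/2, 12027 to 27903 CPM in Striatum NT and 11231 to 16771 CPM in Striatum R6/2. Slc17a7, Neurod2 and Tbr1, 3 markers of cortical excitatory neurons, summed to 25.4 to 83.6 CPM in Cortex NT, 38.4 to 72.2 CPM in Cortex R6/2, 0 to 29.0 CPM in Striatum NT and 4.25 to 14.7 CPM in Striatum R6/2. In the cortex astrocyte markers (4 genes) summed to 667 to 986 CPM in NT and 497 to 600 CPM in R6/2 mice. In the striatum they summed to 335 to 911 CPM in NT and 400 to 693 CPM in R6/2 mice. Microglial markers (4 genes) summed to 132 to 297 CPM over the 4 groups.

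The isoforms on which the findings turn differ at several places, and the sequences around 3 of these are shown. They run 5′ to 3′ on the transcribed strand, from the GENCODE M21 transcripts on mm10. Camkk2 (ENSMUSG00000029471) lies on the minus strand at chr5:122731170-122779409. Its full-length isoform (ENSMUST00000111668) has 17 exons, 4861 bases and 588 codons. The first pair shows the join of exons 15 and 17 with and without exon 16, whose 43 bases, at chr5:122736988-122737030, are in capitals and are all coding.
Camkk2 exon 16 included: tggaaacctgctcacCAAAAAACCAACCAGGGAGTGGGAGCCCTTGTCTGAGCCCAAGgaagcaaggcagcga
Camkk2 exon 16 skipped: tggaaacctgctcacgaagcaaggcagcga
Because 43 leaves a remainder of 1 when divided by 3, the annotated isoform that skips the exon (ENSMUST00000200109, 16 exons, 2751 bases) reads the last exon in another frame, with 541 codons in all and 70 coding bases in the last exon in place of 168. This isoform also ends earlier than the full-length one, at chr5:122733188 against chr5:122731170, so exon 16 is not their only difference. The second pair shows the end of exon 5 of Camkk2. In a short isoform of 5 exons (ENSMUST00000196742, 1084 bases, 216 codons) the transcript runs on into the intron for 327 bases, 23 of them coding, and ends there. Capitals mark the first 20 bases after exon 5, which in the upper sequence are intron and in the lower sequence exon 6.
Camkk2 read-through after exon 5: ggcttcccacGTGAGTTTTGTGCACCTTTG
Camkk2 exon 5 joined to exon 6: ggcttcccacGTCGCCCCCCACCACGAGGA
The third pair shows the end of exon 4 of Camkv (ENSMUSG00000032936, plus strand, chr9:107935674-107949691). One annotated isoform (ENSMUST00000192318, 10 exons, 3253 bases) keeps intron 4, 214 bases at chr9:107945865-107946078, and capitals mark the first 20 bases after exon 4.
Camkv exon 4 and retained intron: ttctggagctGTGAGTACCATACTGGGGTT
Camkv exon 4 joined to exon 5: ttctggagctGGCCACGGGGAGGGAGGTGT
Both introns open with the same 6 bases, GTGAGT, the start of a splice donor that was not used in these transcripts.

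**Figure D1:**
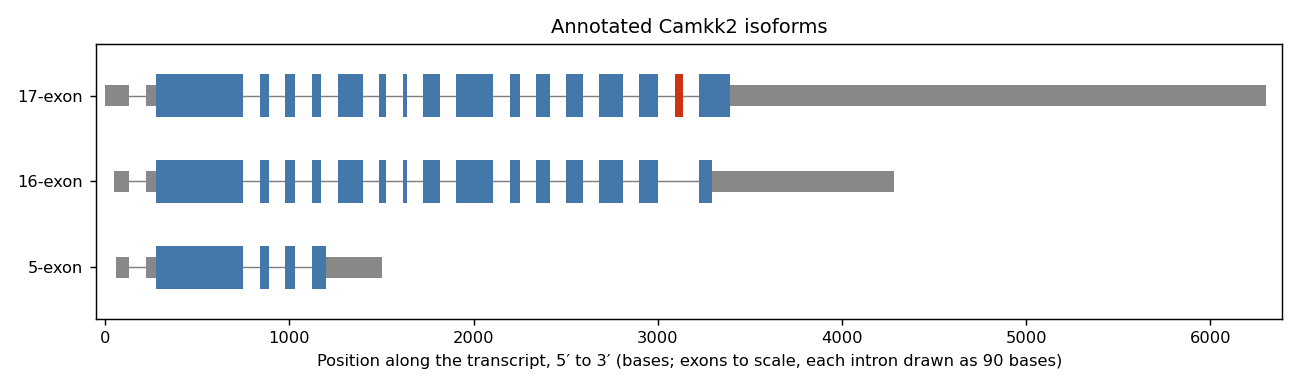
Exons of 3 Camkk2 isoforms drawn to scale in bases of the transcript, with each intron drawn as 90 bases; wide blue blocks are coding, and exon 16 is red. The 17-exon isoform holds exon 16, the 16-exon isoform lacks it, and the 5-exon isoform ends 327 bases past exon 5.

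Camkk2, the CaMKK gene that also feeds AMPK, was lower in R6/2 than in NT mice in both regions. Cortex NT samples had 183, 298, 407 and 317 CPM, and Cortex R6/2 samples had 64.9, 82.8, 91.0 and 84.1 CPM. No R6/2 cortex reached the lowest control, and the fitted difference (R6/2 minus NT) was -1.86 ± 0.22 on the log2 scale (SE), 3.63-fold lower. Striatum NT samples had 268, 279.9, 186 and 86.2 CPM, and Striatum R6/2 samples had 62.1, 68.2, 117 and 66.2 CPM. Here the groups overlapped through Striatum NT 4 (86.2 CPM) and Striatum R6/2 3 (117 CPM), with a log2 difference of -1.41 ± 0.33, 2.65-fold lower. Without Striatum NT 4 the log2 difference was -1.63. Within the striatal samples with 1 set of counts the means were 135.9 and 64.2 CPM (log2 difference -1.08), and within those with 2 sets 274 and 92.5 CPM (-1.57), and NT and R6/2 samples did not overlap in either.

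Camkk1 (ENSMUSG00000020785, plus strand, chr11:73019008-73042073), the second CaMKK gene, was lower in R6/2 cortex as well. Cortex NT samples had 33.8, 54.2, 30.5 and 50.4 CPM, Cortex R6/2 samples 13.4, 21.2, 26.0 and 21.6 CPM, without overlap. The log2 difference was -1.07 ± 0.30 (SE), 2.10-fold lower. The striatal values were 97.4, 85.2, 46.0 and 40.5 CPM in NT and 33.3, 37.9, 53.1 and 9.81 CPM in R6/2 mice. They overlapped through Striatum R6/2 3, and their log2 difference was -1.01 ± 0.39.

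Among the CaMKK targets, Camk4 (ENSMUSG00000038128, plus strand, chr18:32934931-33191228) was the one lower in the striatum of R6/2 mice without overlap. Striatum NT samples had 200.02, 198, 181 and 96.3 CPM, and Striatum R6/2 samples had 53.0, 65.0, 87.1 and 68.7 CPM, a log2 difference of -1.33 ± 0.25 (SE), 2.51-fold lower. In the cortex Camk4 had 118, 85.8, 132 and 103 CPM in NT and 55.4, 82.8, 75.1 and 98.5 CPM in R6/2 mice, which overlapped (-0.46 ± 0.21). Camk1 (ENSMUSG00000030272, minus strand, chr6:113334124-113343984) had 155, 154, 91.6 and 94.8 CPM in Cortex NT and 105, 91.3, 163 and 110.5 CPM in Cortex R6/2, fully intermingled, with a log2 difference of -0.06 ± 0.23. In the striatum Camk1 had 76.3, 61.7, 42.7 and 50.7 CPM in NT and 33.3, 45.5, 44.6 and 31.9 CPM in R6/2 mice, which overlapped (-0.58 ± 0.22). Camk1d (ENSMUSG00000039145, minus strand, chr2:5293457-5714515), a CaMKI isozyme, was at 5.07 to 26.4 CPM in 15 samples and 4.91 CPM in Striatum R6/2 4, with 141 reads in all 16 samples, so its differences (0.09 ± 0.36 in the cortex and -0.75 ± 0.47 in the striatum) rest on few reads and its groups overlapped in both regions.

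Camkv had the most reads of the 6 genes. In the cortex NT samples had 347, 538, 392 and 538 CPM and R6/2 samples 202, 261, 290.4 and 279 CPM. The cortical groups did not overlap, with a log2 difference of -0.81 ± 0.20 (SE), 1.75-fold lower in R6/2 mice. In the striatum NT samples had 1371, 1055, 897 and 481 CPM and R6/2 samples 359, 585, 727 and 366 CPM, overlapping through Striatum NT 4, with a log2 difference of -0.92 ± 0.33. Within samples with 1 set of counts the striatal means were 689 and 362 CPM (log2 difference -0.93) and within those with 2 sets 1213 and 656 CPM (-0.89), so the difference was of like size in both, and without Striatum NT 4 it was -1.12.

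**Figure D2:**
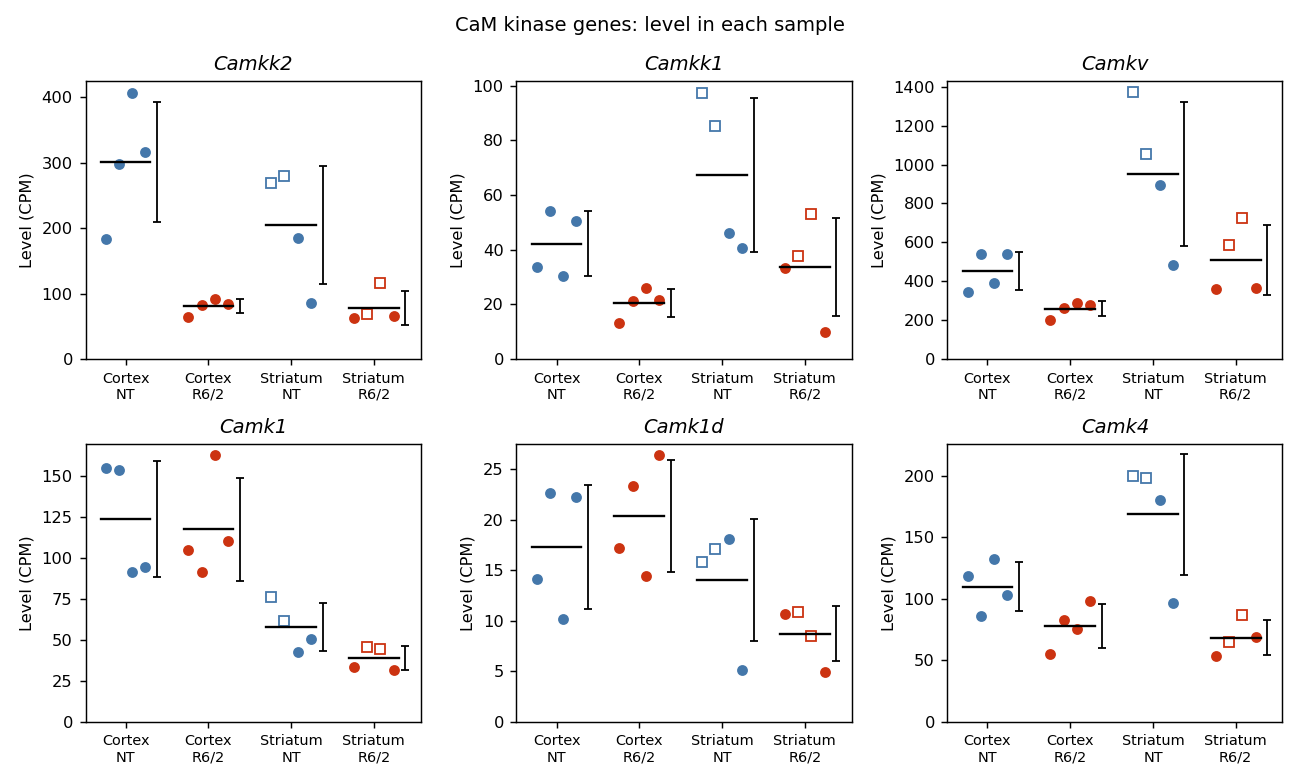
Level of each of the 6 genes (CPM, linear axis) in the 16 samples by region and genotype; circles are samples with 1 set of counts, open squares samples with 2 sets, lines means and bars SD (n = 4). R6/2 cortex lies below NT cortex without overlap for Camkk2, Camkk1 and Camkv, and R6/2 striatum below NT striatum without overlap for Camk4.

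Thus 3 of the 6 genes were lower in R6/2 mice without overlap in the cortex and 1 of the 6 in the striatum. Over all genes tested, 6.54% in the cortex and 4.29% in the striatum were lower without overlap, and the edgeR test called 3.23% and 0.507% of genes at an adjusted p under 0.05. These shares stand beside the counts only, since the genes were chosen on this contrast. The summed markers of striatal projection neurons were also lower in R6/2 mice without overlap in both regions, and their part in the lower kinase levels was not tested.

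The isoforms of Camkk2 were also read in other proportions in R6/2 mice. Complete reads are those of known isoforms and of new isoforms made of known splice sites (NIC) or with at least 1 new splice site (NNC), and the 1333 complete Camkk2 reads were divided over an isoform of 17 exons (78.4%), the 5-exon isoform (6.30%), the 16-exon isoform (4.50%) and others. The share of the 17-exon isoform was 74.5%, 87.6%, 75.8% and 86.8% in Cortex NT and 61.5%, 58.3%, 63.6% and 66.7% in Cortex R6/2, without overlap (means 81.2% ± 7.0 and 62.5% ± 3.51, SD, n = 4). In the striatum the share was 87.8%, 83.8%, 83.3% and 53.3% in NT and 60.6%, 63.0%, 69.4% and 47.8% in R6/2 mice. Striatum NT 4, with 15 complete Camkk2 reads, was the one striatal control within the R6/2 range, and the R6/2 minus NT difference was -16.9 percentage points with it (means 77.1% ± 15.9 and 60.2% ± 9.04) and -24.8 without it.

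The 5-exon isoform, which ends before most of the coding sequence, took a larger share of the reads in R6/2 cortex than in NT cortex. There it had 3.92%, 1.65%, 3.03% and 2.33% of complete reads in NT and 7.69%, 25%, 12.7% and 12.1% in R6/2 mice, without overlap (2.73% ± 0.972 and 14.4% ± 7.42, SD, n = 4). Striatal shares were 2.66%, 2.59%, 3.12% and 26.7% in NT and 27.3%, 7.41%, 14.3% and 26.1% in R6/2 mice. The striatal means were 8.76% ± 11.9 and 18.8% ± 9.58, a difference of 10.003 percentage points with overlap. The 26.7% of Striatum NT 4 is 4 of 15 reads; without that sample the difference was 15.97 percentage points and the groups did not overlap. The isoform is short (1084 against 4861 bases), and the striatal samples with 1 set of counts had the shorter mean isoform lengths. Within samples with 2 sets of counts its mean share was 2.62% in NT and 10.8% in R6/2 striatum without overlap, and within those with 1 set 14.9% and 26.7% with overlap.

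The 16-exon isoform, which skips exon 16, had a larger share in every R6/2 sample than in any NT sample of its region. It is also annotated as shorter than the 17-exon isoform (2751 against 4861 bases), and the part of length in its share was not tested. In the cortex its share was 1.96%, 2.48%, 4.55% and 3.10% in NT and 30.8%, 11.1%, 18.2% and 9.09% in R6/2 mice (3.02% ± 1.12 and 17.3% ± 9.80, SD, n = 4). In the striatum it was 2.13%, 0.647%, 1.04% and 0% in NT and 6.06%, 13.0%, 7.14% and 4.35% in R6/2 mice (0.954% ± 0.892 and 7.63% ± 3.74). Inclusion of exon 16, taken as the 17-exon reads over the sum of 17- and 16-exon reads, and so another form of the same counts, was 97.4%, 97.2%, 94.3% and 96.6% in Cortex NT against 66.7%, 84.0%, 77.8% and 88.0% in Cortex R6/2. In the striatum inclusion was 97.6%, 99.2%, 98.8% and 100% in NT against 90.9%, 82.9%, 90.7% and 91.7% in R6/2 mice. Every R6/2 sample was thus below every control of its region, though the 100% of Striatum NT 4 is 8 of 8 reads, and 0 reads of 8 that skip the exon allow a share of up to 37.5%. All 3 of these Camkk2 isoforms had shares without overlap in the cortex and 1 had in the striatum, where isoform shares without overlap in either direction made up 5.95% of the isoforms tested in the cortex and also 5.95% in the striatum; non-overlap was one of the rules by which isoforms were picked for description.

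In level, the difference lay mainly in the 17-exon isoform. It had 107, 239, 254 and 226 CPM in Cortex NT and 30.6, 44.6, 50.6 and 52.8 CPM in Cortex R6/2, 4.63-fold lower by the means, and 217, 210.1, 131 and 40.5 CPM in Striatum NT against 30.3, 36.8, 72.2 and 26.99 CPM in Striatum R6/2, 3.60-fold lower. The 16-exon isoform had means of 8.23 CPM in NT and 11.4 CPM in R6/2 cortex and of 2.13 and 5.12 CPM in the striatum, and its levels overlapped in both. The 5-exon isoform had means of 6.60 and 10.7 CPM in the cortex and 9.57 and 11.9 CPM in the striatum, with overlap. Of the Striatum NT values of this isoform (6.58, 6.49, 4.93 and 20.3 CPM) the highest is that of Striatum NT 4, from 4 reads. The larger shares of the 2 minor isoforms therefore came with a lower level of the main isoform, while their own levels overlapped between genotypes.

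**Figure D3:**
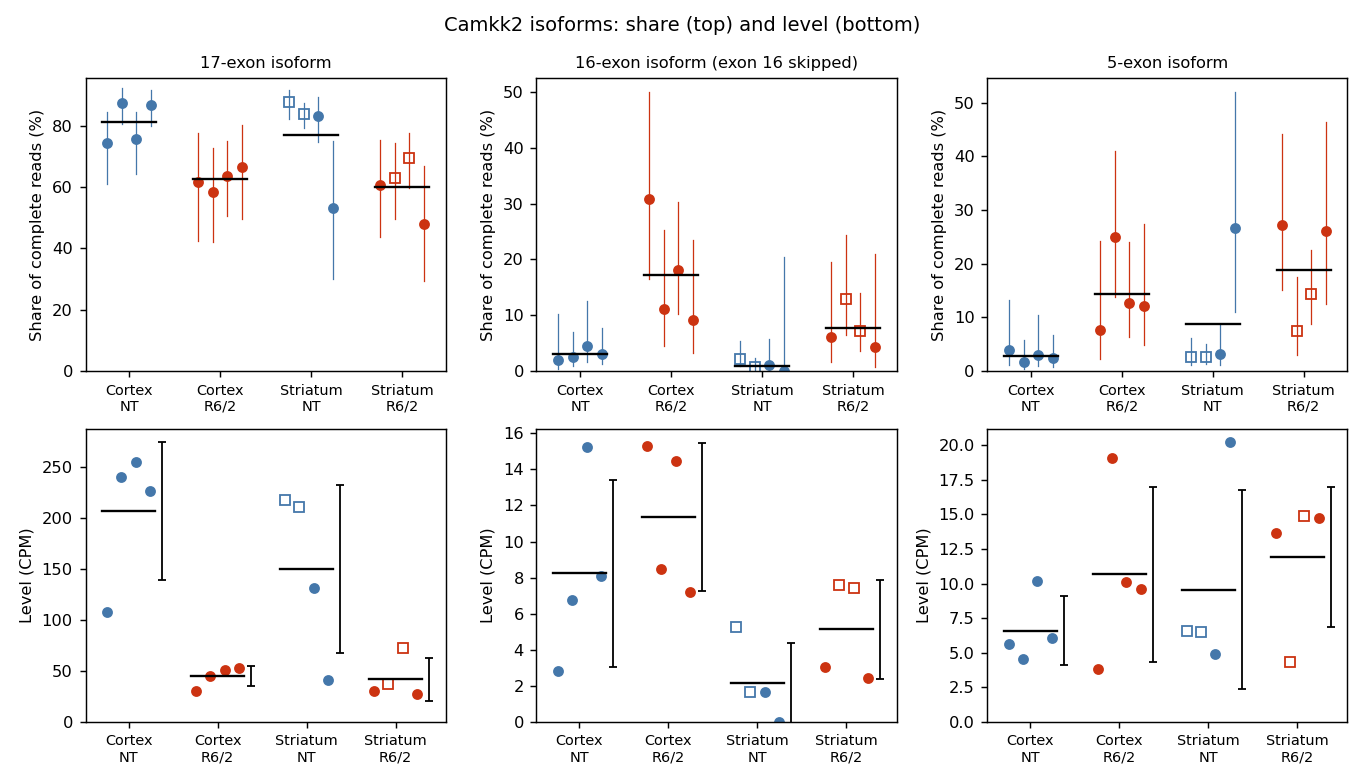
Top, share of complete Camkk2 reads (percent) of the 17-, 16- and 5-exon isoforms in each sample, with 95% Wilson intervals that cover counting error only, open squares for samples with 2 sets of counts and lines for group means; bottom, level of the same isoforms (CPM, mean and SD, n = 4) by group. The 16-exon share is higher in all R6/2 samples than in the NT samples of the same region, and the 17-exon level is lower in R6/2 mice by 4.63-fold in the cortex and 3.60-fold in the striatum.

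Camkv reads were nearly all of 1 isoform, ENSMUST00000035700 (11 exons, 3277 bases, 512 codons), with 4972 of 5546 complete reads. Its share was 90.4% ± 2.73 in Cortex NT and 90.1% ± 4.06 in Cortex R6/2 (SD, n = 4), and 90.4% ± 1.85 in Striatum NT and 87.8% ± 0.612 in Striatum R6/2. The isoform that retains intron 4 was read 83 times. In the cortex it had 6, 8, 2 and 3 reads in NT (5.31%, 3.62%, 2.82% and 1.19% of complete reads) and 1, 1, 0 and 0 reads in R6/2 mice (1.02%, 0.840%, 0% and 0%, where counts of 0 allow up to 1.58% and 2.68%). The shares did not overlap, but the limits of the samples at 0 reach past the lowest control, and the order in the cortex rests on 2 R6/2 reads. In the striatum the share was 1.70%, 1.47%, 2.12% and 0% in NT (0 of 89 reads, which allows 3.37%) and 0.893%, 0.960%, 1.07% and 1.43% in R6/2 mice, with overlap.

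A NIC isoform of Camkv of 10 exons and 2907 bases was read 32 times, 31 of them in R6/2 mice. Striatum R6/2 samples had 3, 11, 7 and 3 reads (1.34%, 2.11%, 1.07% and 2.14% of complete reads) against 1, 0, 0 and 0 reads in Striatum NT (0.1001%, and limits of 0.246%, 0.577% and 3.37% for the counts of 0). Cortex R6/2 samples had 0, 4, 1 and 2 reads and Cortex NT samples had none, where counts of 0 allow 2.65%, 1.36%, 4.23% and 1.19%. The striatal shares did not overlap and the cortical ones did, at 0, and without Cortex R6/2 2 the cortical difference was 0.771 percentage points. A second NIC isoform of 10 exons and 3196 bases had 13 reads, with 2, 2, 3 and 1 in Striatum R6/2 and 1, 2, 0 and 0 in Striatum NT. Both NIC isoforms and the retained-intron isoform were described only because their shares did not overlap between genotypes in a region. They come from 165 Camkv isoforms of any class with reads. In each region 5.95% of the isoforms tested had shares without overlap.

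**Figure D4:**
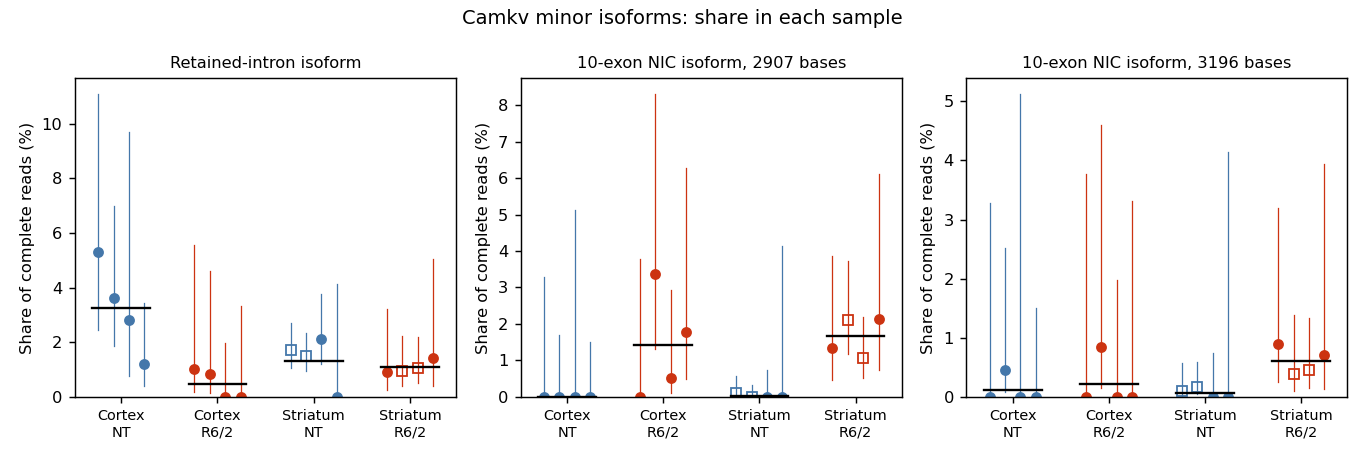
Share of complete Camkv reads (percent) of the retained-intron isoform and of the NIC isoforms of 2907 and 3196 bases in each sample, with 95% Wilson intervals for counting error only; open squares are samples with 2 sets of counts and lines are group means. The NIC isoform of 2907 bases is at 1.07% to 2.14% in Striatum R6/2 and at 0% to 0.1001% in Striatum NT.

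The remaining genes were read mostly as 1 isoform each. Camkk1 had 384 complete reads, of which 309 were of ENSMUST00000092937 (16 exons), 18 and 16 were of a pair of NNC isoforms and 14 were of ENSMUST00000155720, which retains intron 12 (269 bases at chr11:73037269-73037537). Camk1 had 603 of 688 complete reads (87.6%) on ENSMUST00000032409 (12 exons, 1496 bases), and Camk4 had 662 of 730 (90.7%) on ENSMUST00000042868 (11 exons). Camk1d was more mixed, with 31 of 91 complete reads on ENSMUST00000044009 (11 exons), 18 on a 2-exon isoform (ENSMUST00000155927) and 16 and 13 on a pair of NIC isoforms. Incompletely matched reads (ISM, reads that match part of a known isoform) made up 318 of the 1048 Camk4 reads and 300 of the 5846 Camkv reads.

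The second question was whether the genes differ between the regions, tested in each genotype on its own samples. Camkv, the pseudokinase, was higher in the striatum than in the cortex in NT mice, by 1.19 ± 0.33 on the log2 scale (SE, 2.28-fold, adjusted p = 0.0395 by edgeR), and in R6/2 mice, by 1.04 ± 0.24 (2.06-fold, adjusted p = 0.0141). Its samples overlapped between regions in NT mice, through Striatum NT 4 at 481 CPM, and did not in R6/2 mice. Camk1, a CaMKK target, was lower in the striatum in R6/2 mice, by -1.51 ± 0.22 (2.86-fold lower, adjusted p = 0.00119), without overlap. In NT mice Camk1 was at -0.96 ± 0.28, also without overlap, and missed the threshold (adjusted p = 0.0522, 95% interval -1.52 to -0.41). Of the 5 genes that passed the filter on low counts, 1 was called in NT and 2 in R6/2 mice, beside 9.46% and 14.8% of all genes tested.

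The NT call of Camkv was the less firm one. It held without Striatum NT 4 (log2 1.39, adjusted p = 0.00698) and was lost without any other of the 8 samples (adjusted p 0.0556 to 0.112), and with the 2 striatal NT samples with 1 set of counts it was 0.64 (adjusted p = 0.159). In R6/2 mice the call was lost without Cortex R6/2 1 (log2 0.93, adjusted p = 0.0525), and with 1 set of counts only it was 0.57 (adjusted p = 0.0158). Camk1 in R6/2 mice kept its call without any 1 sample (adjusted p 0.00198 to 0.00459). The summed oligodendrocyte markers were higher in every striatal sample than in every cortical one of either genotype, and the sum of the 3 cortical excitatory markers was lower in every Striatum R6/2 than in every cortical sample; the part of either in the regional levels of the kinases and of the genes around them was not tested.

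The other 3 tested genes did not pass the threshold in either genotype. Camkk2 was at -0.40 ± 0.34 in NT mice (SE, adjusted p = 0.501, 95% interval -1.06 to 0.27) and at 0.04 ± 0.23 in R6/2 mice (adjusted p = 0.942, interval -0.41 to 0.48). With the striatal NT samples of 1 set of counts only, Camkk2 was at -1.03 and passed (adjusted p = 0.0379). Camkk1 was at 0.80 ± 0.32 in NT (adjusted p = 0.147) and 0.84 ± 0.38 in R6/2 mice (adjusted p = 0.174). With striatal samples of 1 set of counts only, Camkk1 was at 0.03 in NT (adjusted p = 0.961) and 0.27 in R6/2 mice (adjusted p = 0.681), and in R6/2 mice it passed without Striatum R6/2 4 (adjusted p = 0.0217) and with the genomic class added (0.0211). Camk4 was at 0.79 ± 0.26 in NT (adjusted p = 0.0869, and 0.0257 without Striatum NT 4) and at -0.11 ± 0.22 in R6/2 mice (adjusted p = 0.793). Camk1d did not pass the filter on low counts and was not tested; its levels were lower in every Striatum R6/2 than in every Cortex R6/2 sample.

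**Figure D5:**
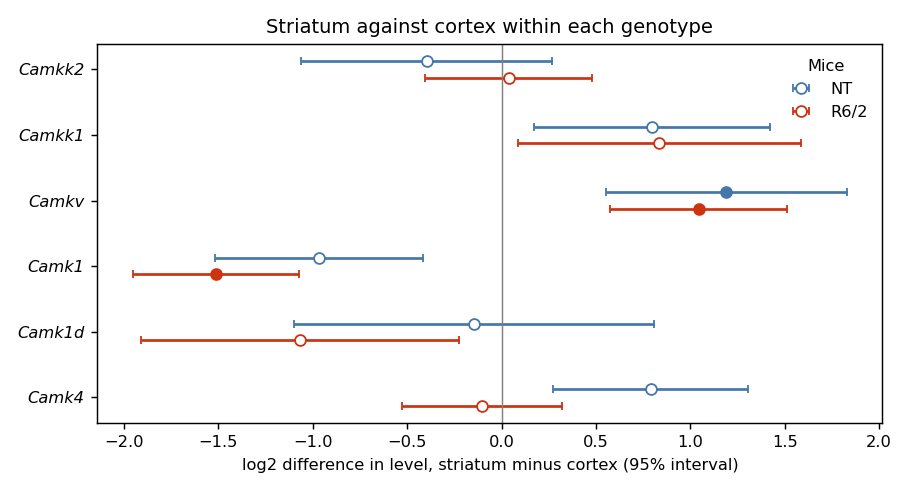
Difference between striatum and cortex (log2, positive where the striatum is higher) of the 6 genes in NT (blue) and R6/2 mice (red), with 95% intervals; filled points have an adjusted p under 0.05. Camkv is filled in both genotypes and Camk1 in R6/2 mice.

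Whether the regional difference changed with genotype was not tested for these genes, since that test uses the contrast they were chosen on. The ordered group means were, for Camkv, Striatum NT (951 ± 370.1 CPM, SD, n = 4), Striatum R6/2 (509 ± 179), Cortex NT (454 ± 99.1) and Cortex R6/2 (258 ± 39.0), and of these neighbours only the cortical groups did not overlap. For Camk1 the order was Cortex NT (124 ± 35.4), Cortex R6/2 (118 ± 31.6), Striatum NT (57.8 ± 14.6) and Striatum R6/2 (38.8 ± 7.20), with a gap between Cortex R6/2 and Striatum NT. Camkk2 ran from Cortex NT (301 ± 91.9) over Striatum NT (205 ± 89.7) and Cortex R6/2 (80.7 ± 11.1) to Striatum R6/2 (78.3 ± 25.8), where all neighbours overlapped. Camkk1 ran from Striatum NT (67.3 ± 28.3) over Cortex NT (42.2 ± 11.8) and Striatum R6/2 (33.5 ± 17.9) to Cortex R6/2 (20.6 ± 5.26), and Camk4 from Striatum NT (169 ± 49.1) over Cortex NT (109.9 ± 20.02) and Cortex R6/2 (77.9 ± 17.9) to Striatum R6/2 (68.4 ± 14.1). In these, and in Camk1d (8.71 ± 2.74 in Striatum R6/2 to 20.4 ± 5.50 in Cortex R6/2), all neighbours overlapped.

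Where they were tested, isoform proportions of the kinases did not differ between the regions at the threshold. Camk4 in both genotypes and Camkk1 in R6/2 mice were not in the isoform usage test, which takes isoforms with at least 10 reads. The isoform usage test of edgeR, which called 0.27% of genes in NT and 0.775% in R6/2 mice, gave an adjusted p of 1.0 for Camkk2, Camk1, Camkv and Camk1d in both genotypes and for Camkk1 in NT mice. Inclusion of exon 16 of Camkk2 had an adjusted p of 0.999 in NT and 1.0 in R6/2 mice, in a test that called 0.307% of cassette exons in NT and 0% in R6/2 mice. As single values per sample, inclusion was 94.3% to 97.4% in Cortex NT and 97.6% to 100% in Striatum NT, which did not overlap (two-sided exact permutation p = 0.0286, the smallest that 4 against 4 samples can give). Over the 98 exact tests of this kind its adjusted p was 0.400, and in R6/2 mice the exact p was 0.0857. The main isoform of Camk4 had a share of 92.3% to 100% in Cortex R6/2 and 83.3% to 90% in Striatum R6/2, also at the smallest exact p (adjusted p = 0.400).

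The kinases work with calmodulin, its buffers, phosphatases and targets, and a list of 25 such genes was tested in each comparison. Like the kinases, the list was chosen with earlier results of these data known, so its R6/2 against NT tests are no independent support. In the cortex 16 passed the filter, and Pcp4, a small protein that binds calmodulin, fell in R6/2 mice by 0.79 on the log2 scale (SE 0.18, adjusted p = 0.0189, 387 to 530.2 CPM in NT against 233 to 302 CPM). Pcp4 lost this call without Cortex R6/2 2, 3 or 4 (adjusted p 0.0814 to 0.0884), without ISM isoforms (0.0640) and with all 16 samples in 1 fit (0.754). The median of the 16 log2 differences was -0.37, against 0.02 over all genes tested. Of the 16, 7 had an unadjusted p under 0.05, beside 1055 of all 6128 genes tested. In the striatum none of 17 was called by edgeR, with a median of -0.16 against -0.01 over all genes. Of the 17, 5 had an unadjusted p under 0.05, beside 762 of all 7694 genes tested.

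Between regions in NT mice, 2 of 15 list genes changed, beside 9.46% of all genes tested. Camk2g, the gamma subunit of CaMKII, was lower in the striatum (log2 -1.61 ± 0.32, SE, adjusted p = 0.00923) and Pcp4 was higher (3.31 ± 0.70, adjusted p = 0.0120). Pcp4 had 901 and 1040.0 CPM in the striatal NT samples with 2 sets of counts and 4371 and 9027 CPM in those with 1 set, against 387 to 530.2 CPM in the cortex. The size of its difference thus rests largely on the samples with 1 set, and it was 2.35 without Striatum NT 4 (adjusted p = 0.00563). Over 9 other settings of the gene count test the adjusted p of Pcp4 reached 0.0648, past the threshold. In R6/2 mice 7 of 16 changed, 6 of them lower in the striatum, beside 14.8% of all genes tested. Ppm1e, a phosphatase of CaM kinases, was lowest (log2 -3.43 ± 0.42, adjusted p = 0.000374), with 28.6 ± 3.91 CPM in the cortex and 1.99 ± 1.80 CPM in the striatum (SD, n = 4). Camk2n1, an inhibitor of CaMKII, was at -2.22 ± 0.42 (adjusted p = 0.00480), Camk2g at -1.20 ± 0.21 (adjusted p = 0.00347) and Camk2a, the alpha subunit, at -0.84 ± 0.19 (adjusted p = 0.0146). Camk2a turned to 0.42, not called, when partial (ISM) reads were left out. Nrgn, a calmodulin buffer of dendrites, was at -0.95 ± 0.27 (adjusted p = 0.0362, with overlapping samples), Calm3, a calmodulin gene, at -0.78 ± 0.23 (adjusted p = 0.0390) and Pcp4 at 2.06 ± 0.48 (adjusted p = 0.0150). Here too Pcp4 was at 366 and 428 CPM in the striatal samples with 2 sets of counts and at 1331 and 1934 CPM in those with 1 set, against 233 to 302 CPM in the cortex. The median over the list was 0.03 in NT (0.12 over all genes) and -0.24 in R6/2 mice (0.06 over all genes). Calm3 lost its call without any 1 of 7 of the 8 samples (adjusted p up to 0.120), and Pcp4 in R6/2 mice lost it without Cortex R6/2 2 (0.0539) or Cortex R6/2 3 (0.0503).

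By the correlation of log2 CPM over the 16 samples, given as a description of levels that share libraries, depth and the 4 groups, the genes most like Camkk2 were Rab40b (r = 0.925), Nrsn1 (0.921) and Htra1 (0.921). Those most like Camkv were Ngef (0.966), Cldn11 (0.955) and Ppp1r2 (0.942), and those most like Camk4 were Gnb5 (0.859), Rab40b (0.856) and Ap1s1 (0.856). Camkk1 was nearest to Mmd2 (0.927), Ube2g2 (0.907) and Tiam2 (0.893), Camk1 to Mapt (0.928), Aqp4 (0.923) and Ncald (0.920), and Camk1d to Pik3r1 (0.898), Gria4 (0.837) and Rabgap1 (0.815). These were picked from 4660 genes.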

How the data were processed

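RNA was treated with a 5′-phosphate-dependent exonuclease, made into poly(A) cDNA libraries with preamplification and sequenced by PacBio Iso-seq. The authors made circular consensus reads, trimmed them (lima, isoseq3 refine), mapped them to mm10 with minimap2 2.17-r941 (submitters' processing notes), cleaned the alignments with TranscriptClean and matched each read to an isoform of Ensembl 87 or a new one with TALON. The values they deposited are counts of reads per isoform, unfiltered and not normalized. TALON classes are known, partial (ISM), NIC, NNC and genomic. No molecular identifiers were used, so intervals and limits of 0 (3 reads) cover counting error only.

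Groups came from the labels. Gene counts, computed here, sum known, ISM, NIC and NNC reads; CPM are counts per 1e+06 reads of the normalized library, and the 2 sets of counts of 4 samples were summed. Differences were tested with edgeR 4.0.16 (TMM, filterByExpr, quasi-likelihood test) within the 2 groups compared, isoform usage with diffSpliceDGE (isoforms with at least 10 reads, Simes p) and cassette exons with the same function (at least 10 reads of each form), with Benjamini-Hochberg adjustment over all features and a threshold of 0.05. Fitted log2 differences are those of the edgeR fits at the default prior count, and the log2 CPM used for correlations have a prior count of 2. The SE of a fitted difference is its absolute value over the square root of the F statistic of its test. The 95% intervals of these differences are normal intervals from that SE and are not widened for the small number of samples. Single values were compared by exact permutation tests. Intervals of shares are Wilson intervals at 95% (scipy 1.17.1). Other tools were R 4.3.3, DESeq2 1.42.0 and Python 3.11.15, with figures by matplotlib 3.10.9. Scripts were tested on simulated counts for striatum against cortex in NT mice. There the gene test recovered 31.1% and 26.8% of 2-fold changes (lower and higher in striatum). It recovered 95.1% and 100% of 4-fold ones, and the isoform usage test 64% of changed genes. A gene that was not called may therefore still differ.

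The members and lists were chosen with earlier results of these data known. Isoforms described have a mean share of at least 5% of complete reads in 1 group, or at least 10 reads and shares that do not overlap between genotypes in a region, up to 6 per gene. List genes named are those with an adjusted p under 0.05. Alternatives were other normalizations, tools, filters, isoform classes, sets of counts, samples and a replicate block. The 4 samples of a group are separate mice, and whether same-numbered cortex and striatum came from 1 mouse is not in the labels; p-values measure the spread between these samples. A further marker of cortical excitatory neurons is not reported here.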

Additional observations from a re-analysis of the deposited data

Results flagged for a closer look

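Of 48 sets of 4 values checked (levels, isoform shares and exon inclusion of Camkk2, Camkv and the other kinases), 5 held a sample far from the other 3. The rule flags about 1 in 20 sets of independent normal values. These sets share samples and reads, and some hold counts of 0, so 5 of 48 cannot be read against that rate. Camkk2 had 117 CPM in Striatum R6/2 3, the highest of its group, and exon 16 inclusion of 82.9% in Striatum R6/2 2, the lowest of its group. Striatum NT 4 had the lowest share of the 17-exon Camkk2 isoform in its group (53.3%) and the highest share of the 5-exon isoform (26.7%), from 15 complete reads. Striatum NT 1 had 0.1001% of the Camkv NIC isoform of 2907 bases, from 1 read, where the other 3 NT striata had 0 reads.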

How the results depend on the processing

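In the R6/2 against NT cortex comparison, 198 genes were called, 95 without ISM isoforms and 47 with all 16 samples in 1 fit. In the striatum 39 were called, 13 with upper-quartile scaling, 111 with DESeq2, 140 without a filter, 13 without ISM isoforms, 59 with the genomic class, 20 with the first set of counts, 145 with all 16 samples and 332 with the number of sets as a term. Between regions, 584 genes were called in NT mice, 1222 without a filter, 367 without ISM, 1103 with all 16 samples and 1615 with striatal samples of 1 set; in R6/2 mice 1034 were called, 1590 without a filter and 1984 with 1 set. Isoform usage calls were 11 in the cortex (7 with known isoforms only, 28 by the F test), 3 in the striatum (0 with known isoforms, with ISM isoforms or with the first set, 17 by the F test, 20 with the number of sets as a term), 10 between regions in NT mice (22 by the F test) and 31 in R6/2 mice (17 with known isoforms, 172 with ISM, 69 by the F test). Cassette exon calls in NT mice were 2, and 1 with at least 20 reads. Camkv between regions in NT mice missed the threshold with upper-quartile scaling (log2 1.07), the first set of counts (1.01) and striatal samples of 1 set (0.64); Camk1 passed it with upper-quartile scaling (-1.09), DESeq2 (-1.05), the genomic class (-1.04), the first set (-1.03), all 16 samples (-1.08) and 1 set (-1.42). Camk2a in R6/2 mice was 0.42 without ISM isoforms. The share difference of the 17-exon Camkk2 isoform in the cortex was -26.4 percentage points among known isoforms. The causes of these changes were not tested.

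Leaving out each sample in turn gave 95 to 300.0 gene calls in the cortex, 3 to 38 in the striatum, 364 to 740 between regions in NT and 632 to 1324 in R6/2 mice. Isoform usage calls ran from 1 to 15, 0 to 6, 0 to 12 and 13 to 42 in the same order, and cassette exon calls from 0 to 2 in NT and 0 to 1 in R6/2 mice. Camkv between regions was 0.98 to 1.39 in NT and 0.84 to 1.17 in R6/2 mice, and Camk1 in NT mice -1.12 to -0.84.

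Same-numbered samples did not deviate together throughout, so the numbers were not read as pairs: their correlations were -0.57 to 0.62 between genotypes, -0.23 to 0.23 between regions in NT mice, and 0.40, 0.19, 0.38 and -0.04 between regions in R6/2 mice, where 3 of 4 samples correlated best with their own number, a hint from the data and not the design. With the replicate block, gene calls were 0 in the striatum by genotype and 310 between regions in NT mice, isoform usage calls were 0 in the striatum, 1 between regions in NT and 50 in R6/2 mice, cassette exon calls were 2 in R6/2 mice, and Camkv between regions in NT mice was 1.15 and missed the threshold. Samples of few reads, such as the 15 complete Camkk2 reads of Striatum NT 4 and the 91 complete Camk1d reads in all, limit what can be seen of isoforms.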
